A study of Oryza sativa with 18 samples.

Results

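The genes described here are the loci of the deposited gene table whose description names a C2H2 zinc finger. A search of the descriptions for the letters C2H2, ignoring case, found 74 of 34716 loci (0.213%). Of these, 69 carried 1 gene name and 5 were loci in which reads of 2 neighbouring annotated genes had been joined. The choice used annotation text and no expression value.

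A C2H2 zinc finger is a short fold in which a pair of cysteines and a pair of histidines hold 1 Zn ion as a structural part. Whether the protein of each member holds such a finger was not checked. Many C2H2 proteins of plants are transcription factors that bind DNA through their fingers, in flowering, root development and responses to drought, salt and metals. Others bind RNA or other proteins and act in splicing, small RNA processing or ribosome assembly. In the deposited annotation, 56 of the 74 loci carried the GO term nucleus, 48 transcription factor activity, 36 metal ion binding and 23 zinc ion binding, whereas 4 carried a splicing or spliceosome term and 4 no GO term.

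Poly(A) RNA was sequenced from roots and shoots of rice seedlings (Oryza sativa japonica, cultivar Nipponbare) grown in Yoshida nutrient solution, with 3 libraries in each of 6 groups and each library made from a pool of 3 seedlings. Resupply seedlings (ZRR, roots; ZRS, shoots) had 2 weeks without Zn and then 3 days with 1.5 µM ZnSO4. The -Zn seedlings (ZMR, roots; ZMS, shoots) had 2 weeks without Zn, and the +Zn seedlings (ZPR, roots; ZPS, shoots) had 1.5 µM ZnSO4 throughout. Resupplied seedlings were harvested after those further days, so that the effect of Zn and that of age cannot be told apart in a comparison of resupply with -Zn. The abundance of each locus was given in FPKM, a fragment count scaled to the length of the transcript and to the mapped reads of the library, and fold changes are on the log2(FPKM + 0.5) scale, which understates the change of low genes.

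The libraries fitted their tissue labels. Summed FPKM of 7 green tissue loci was 55.9 to 169 in roots and 2883 to 5845 in shoots, and that of 7 root loci was 747 to 2388 in roots and 4.12 to 16.7 in shoots. The Zn transporter gene Os06g0566300 (OsZIP10), which is no C2H2 gene and was taken as a check of the treatment, had 32.3, 19.6 and 20.0 FPKM in ZMR against 0.749, 0.904 and 0.984 FPKM in ZPR (log2 fold change 4.11 ± 0.22 SE, adjusted p = 0.000491, limma). Depth, read as coverage per FPKM, was 3.67 in ZRR replicate 3 and between 6.001 and 7.753 in the other libraries. ZRS replicate 1 stood apart, with 16.8% of its isoform FPKM in isoforms of the class codes e, i, p or u, against at most 5.14% elsewhere. Its summed C2H2 FPKM of 194 was the lowest of all.

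Together the C2H2 loci summed to 348 to 438 FPKM in the root libraries (median 383) and 194 to 333 FPKM in the shoot libraries (median 290). Most single members were low. The median member averaged 1.01 FPKM in roots and 0.876 FPKM in shoots, 28 members averaged 5 FPKM or more in roots and 19 did so in shoots, and 25 of 74 never reached 1 FPKM in any library. A total of 37 members were above 0 in all 18 libraries.

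**Figure D1:**
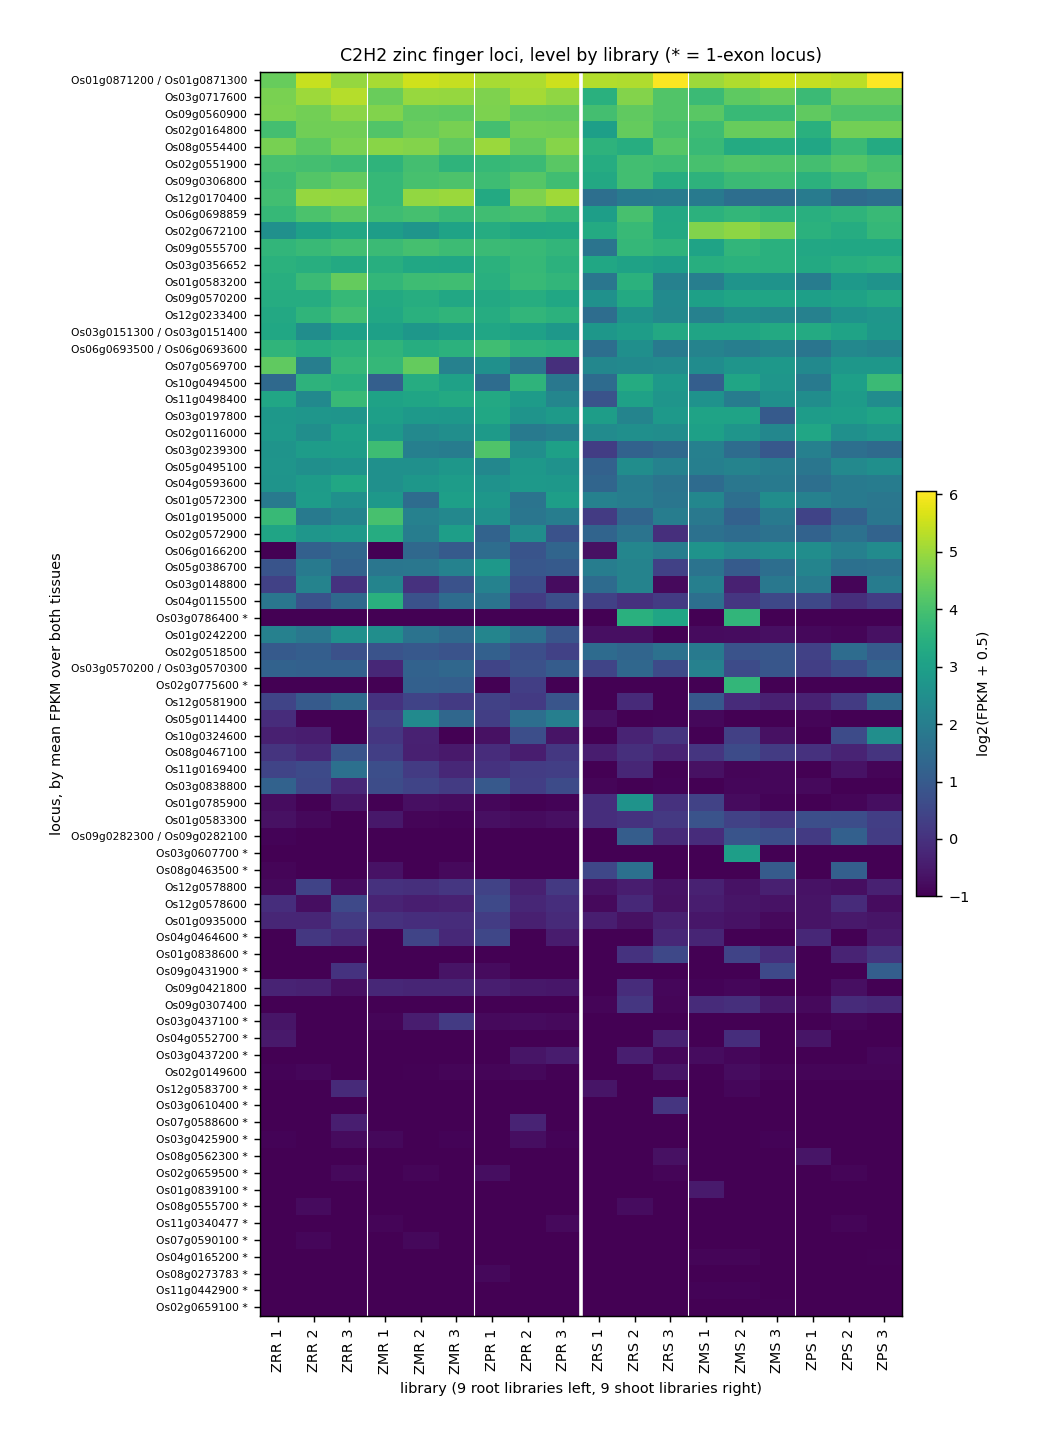
Level of each of the 74 C2H2 loci (rows, ordered by mean FPKM over both tissues) in each of the 18 libraries (columns) as log2(FPKM + 0.5), with 1-exon loci marked by an asterisk. The upper rows are above 0 in every library, the 1-exon loci lie mostly in the lower rows, and Os12g0170400 and Os02g0672100 stand out as rows that differ between blocks of libraries.

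The most abundant members were expressed in both tissues. The locus Os01g0871200;Os01g0871300 had 20.7 to 46.4 FPKM in roots (median 36.4) and 32.2 to 66.4 FPKM in shoots (median 39.7), but it joins a C2H2 gene with one described as similar to aspartate aminotransferase, so its level is not that of the C2H2 gene alone. Os03g0717600, a C2H2 matrin-type protein with the GO terms spliceosomal complex and RNA binding, had 21.4 to 38.4 FPKM in roots (median 30.2) and 10.8 to 26.5 FPKM in shoots (median 19.3). The ranges of these loci overlapped between the tissues. Os09g0560900, annotated to transcription factor activity and to negative regulation of flower development, had 19.5 to 28.1 FPKM in roots and 13.1 to 19.7 FPKM in shoots, which overlapped slightly. Os02g0164800, annotated to cysteine-type peptidase activity in the cytosol, had 14.9 to 24.0 FPKM in roots and 7.47 to 23.2 FPKM in shoots. Os06g0698859, similar to SERRATE, a protein of primary miRNA processing, had 12.7 to 18.8 FPKM in roots and 7.21 to 15.5 FPKM in shoots.

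Gene structure separated the members. In 24 of 74 members (32.4%) every transcript had 1 exon, against 22.4% of all loci. None of these 24 was above 0 in all 18 libraries, and 19 of them never reached 1 FPKM, whereas 37 of the 50 members with introns were above 0 throughout and 6 never reached 1 FPKM. Some values listed at 0 stood beside high values of the same group. This was seen in 8 members, 5 of them with 1 exon, for 19 values in all, 15 of them in 1-exon members. These counts by exon number were not made over all loci, so they show no trait particular to C2H2 genes.

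The clearest case was Os03g0786400, a 1-exon locus on chromosome 3 described as a C2H2 transcription factor of drought and salt tolerance that controls stomatal aperture. It was listed at 0, 10.6 and 8.38 FPKM in ZRS, at 0, 11.95 and 0 FPKM in ZMS and at 0 in the 3 ZPS and all 9 root libraries. Os02g0775600, also with 1 exon, was listed at 0, 12.3 and 0 FPKM in ZMS. Os03g0607700 was listed at 7.25 FPKM in ZMS replicate 2 and at 0 in every other library. A mean or fold change of such loci rests on which library was listed at 0. Os03g0437200, described as an abscisic acid-induced gene of antioxidant defence, was listed at 0 to 0.226 FPKM in roots and 0 to 0.249 FPKM in shoots and was not tested.

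Whether C2H2 genes changed with Zn supply was tested within each tissue, in 43 members in shoots and 44 in roots that reached 0.5 FPKM in at least 3 of the 9 libraries. A locus counted as differentially expressed (called) where its log2 fold change was 1 or more in size and its adjusted p was 0.05 or less. No member was called in any of the 6 comparisons by limma. The share of all tested loci that was called was itself small, at 0.0878% for ZMS/ZPS, 0.0683% for ZRS/ZMS, 0.0244% for ZRS/ZPS, 0.046% for ZMR/ZPR, 0.124% for ZRR/ZMR and 0.023% for ZRR/ZPR, so a count of 0 among 43 or 44 members is near this background. At an unadjusted p under 0.05 there was 1 member in ZMS/ZPS (2.33%, against 1.68% of all tested loci), with 3 in ZRS/ZMS (6.98% against 5.84%) and 1 in ZRS/ZPS (2.33% against 4.14%). In roots there were 2 in ZMR/ZPR (4.55% against 3.56%), 3 in ZRR/ZMR (6.82% against 3.51%) and 2 in ZRR/ZPR (4.55% against 4.41%). At such counts 1 or 2 members make up the difference.

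The median of the members was near that of all loci. Their median log2 fold change was 0.02 in ZMS/ZPS, against 0.03 over all tested loci, and 0.04 in ZMR/ZPR, against 0.00078. In ZRS/ZMS it was -0.18 against -0.19, and in ZRR/ZMR it was 0.05 against 0.07. These medians rested on single libraries and on the scaling. That of ZRS/ZMS was -0.00064 in members and -0.06 over all loci without ZRS replicate 1, -0.41 and -0.33 without ZRS replicate 2, and 0.03 and 0.01 with quantile normalization. That of ZRR/ZMR was 0.17 and 0.10 without ZRR replicate 1, and -0.0045 and 0.02 without ZRR replicate 3. In shoots 19 of 43 members had a 95% interval for ZMS/ZPS that lay wholly within 1 log2 unit of no change, and in roots 27 of 44 had one for ZMR/ZPR. Of the 36 members tested in both tissues, 11 had such an interval in all 6 Zn comparisons, among them Os03g0717600, Os06g0698859 and Os09g0560900. For the rest of the 36, at least 1 interval reached a change of 2-fold.

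**Figure D2:**
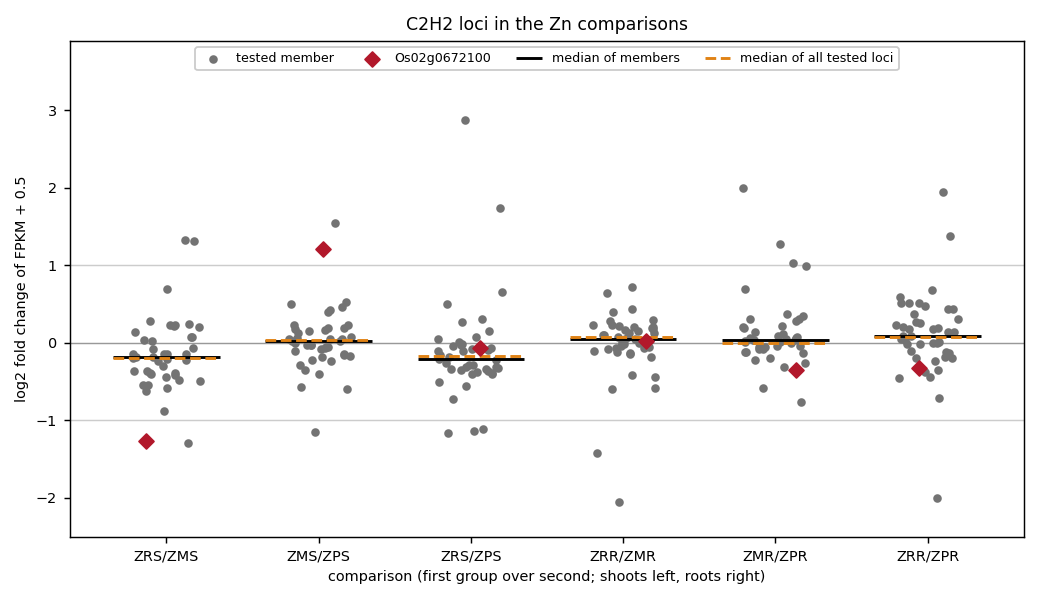
Log2 fold change of FPKM + 0.5 of each tested C2H2 locus (points) in the 6 Zn comparisons, shoots left and roots right, with the medians of the members and of all tested loci as lines and grey lines at 1 and -1. Most members lie between the grey lines, and Os02g0672100 (diamonds) lies at 1.21 in ZMS/ZPS and -1.27 in ZRS/ZMS.

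Os02g0672100 came nearest to a call. It is described as a C2H2-type transcription factor that promotes flowering and lies on the plus strand of chromosome 2 from 27315892 to 27325699 (IRGSP-1.0), with 4 exons. In shoots it had 9.51, 13.1 and 9.34 FPKM in ZRS, 26.0, 28.4 and 24.2 FPKM in ZMS, and 10.9, 9.87 and 12.5 FPKM in ZPS. All 3 ZMS libraries lay above the 6 other shoot libraries, with a mean 2.36 times that of ZPS and 2.45 times that of ZRS. In roots it had 5.33, 7.61 and 8.84 FPKM in ZRR, 7.20, 5.93 and 7.98 FPKM in ZMR, and 9.81, 8.63 and 8.79 FPKM in ZPR. There the 3 ZMR libraries lay below the 3 ZPR libraries, the opposite order. Without overlap, 3.84% of all tested loci were higher in ZMS/ZPS and 4.75% were lower in ZMR/ZPR.

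The tests of Os02g0672100 missed the threshold after adjustment. The log2 fold change was 1.21 ± 0.19 (SE, 95% interval 0.77 to 1.64, unadjusted p = 0.000167, adjusted p = 0.149, limma) in ZMS/ZPS, with the separation seen in 3 of 3 libraries. It was -1.27 ± 0.19 (95% interval -1.71 to -0.83, adjusted p = 0.132) in ZRS/ZMS and -0.06 ± 0.19 (adjusted p = 0.986) in ZRS/ZPS. In roots it was -0.35 ± 0.20 in ZMR/ZPR (95% interval -0.82 to 0.11, adjusted p = 1). Both shoot comparisons passed when all 18 libraries shared 1 estimate of the spread (adjusted p = 0.0184 and 0.00995), whereas under the other alternatives it passed only where values of 0 were treated as missing (0.0486 and 0.0436).

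**Figure D3:**
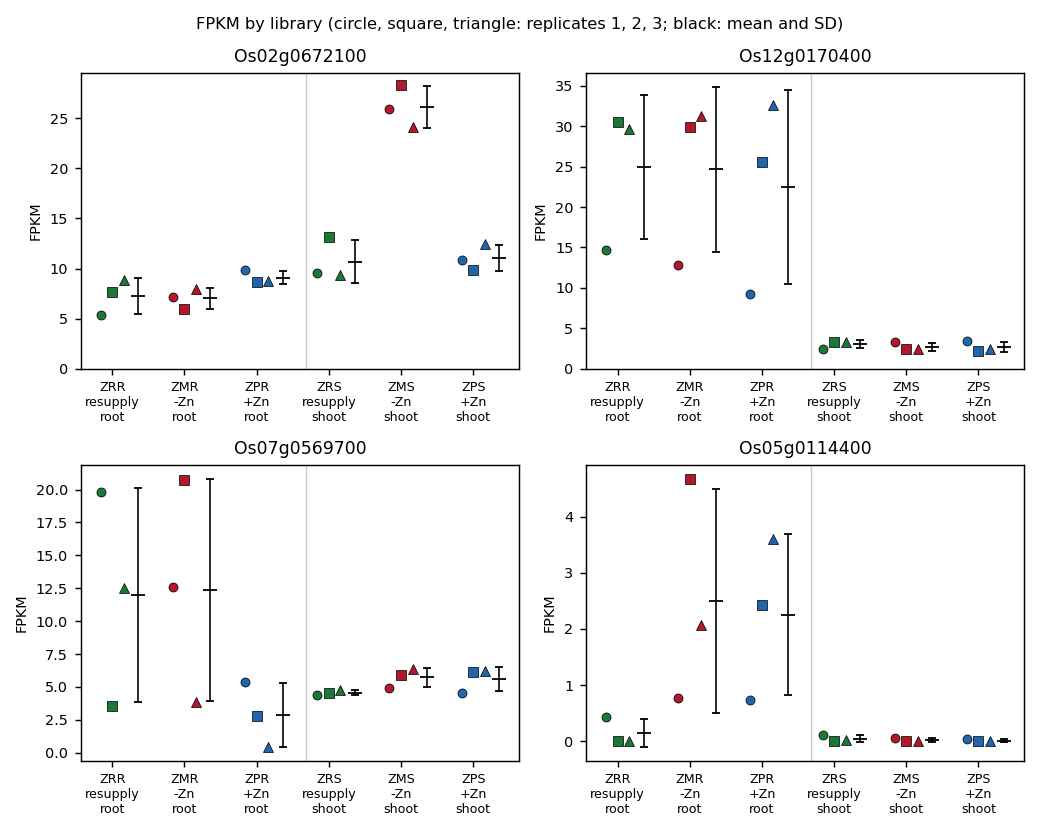
FPKM of 4 C2H2 loci in each library of the 6 groups (circles, squares and triangles for replicates 1, 2 and 3), with the mean and SD of each group in black. Os02g0672100 is high in the ZMS libraries (24.2 to 28.4 FPKM), Os12g0170400 is high in roots with replicate 1 lower, Os07g0569700 is spread widely among root libraries, and Os05g0114400 is near 0 in ZRR and in shoots.

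The other members with the smallest p-values were lower or more variable. Os07g0569700, a stress-associated protein with AN1 and C2H2 fingers, had 19.8, 3.55 and 12.5 FPKM in ZRR, 12.6, 20.7 and 3.83 FPKM in ZMR, and 5.37, 2.80 and 0.463 FPKM in ZPR. The ZMR and ZPR libraries overlapped, and the log2 fold change of 2.00 ± 0.87 in ZMR/ZPR had an adjusted p of 1. In shoots it varied little, between 4.36 and 6.35 FPKM. Os02g0572900 had 9.93, 3.46 and 7.25 FPKM in ZMR against 1.86, 5.02 and 1.22 FPKM in ZPR, also overlapping (log2 fold change 1.28 ± 0.48, adjusted p = 1).

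In ZRR/ZMR the smallest p belonged to Os05g0114400, annotated to transcription factor activity. It had 0.429, 0 and 0 FPKM in ZRR against 0.763, 4.68 and 2.07 FPKM in ZMR, and 0.744, 2.42 and 3.60 FPKM in ZPR. The 3 ZRR libraries lay below the others, with a log2 fold change of -2.06 ± 0.60 in ZRR/ZMR (unadjusted p = 0.00849, adjusted p = 0.983). Os12g0581900 had 0.859, 1.48 and 2.16 FPKM in ZRR against 0.520, 0.849 and 0.648 FPKM in ZMR, without overlap (0.73 ± 0.31, adjusted p = 0.983). Os02g0775600 was listed at 0 in all ZRR libraries against 0, 1.73 and 1.68 FPKM in ZMR (adjusted p = 0.983).

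In shoots 6 of 43 members (14%) were lower in every ZRS library than in every ZMS library, against 8.86% of all tested loci, and the median over all loci was itself below 0. Besides Os02g0672100 they were Os03g0356652 and Os08g0467100, which ranked next by p, and Os06g0166200, Os02g0551900 and Os07g0569700, with log2 fold changes of -1.29, -0.36 and -0.29 (adjusted p = 0.876, 0.876 and 0.879). Os03g0356652 had 8.80, 7.97 and 7.24 FPKM in ZRS against 10.3, 11.005 and 10.7 FPKM in ZMS, and 9.37, 10.3 and 10.96 FPKM in ZPS. The ZRS/ZMS change was -0.40 ± 0.16 on the log2 scale (adjusted p = 0.821). In roots it had 10.3, 8.77 and 8.65 FPKM in ZMR against 10.98, 12.8 and 11.03 FPKM in ZPR, also lower without overlap (-0.31 ± 0.14, adjusted p = 1). Os08g0467100 had 0.241, 0.459 and 0.312 FPKM in ZRS against 0.571, 1.04 and 0.666 FPKM in ZMS (-0.58 ± 0.25, adjusted p = 0.844), and 0.498, 0.308 and 0.552 FPKM in ZPS. Os10g0324600, also among those of smallest p in ZMS/ZPS, had 0, 0.764 and 0.123 FPKM in ZMS against 0, 1.02 and 5.10 FPKM in ZPS, so that its log2 fold change of -1.14 rested on ZPS replicate 3. None of these passed the adjustment.

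Whether the response to Zn differed between roots and shoots was tested as an interaction in the 18 libraries, in 52 members. No member was called for -Zn (0.0655% of all tested loci were) or for resupply (0.106% of all tested loci were). At an unadjusted p under 0.05 there was 1 member for -Zn (1.92%, against 2.89% of all tested loci), and there were 6 for resupply (11.5% against 5.34%). For Os02g0672100 the difference of the root and shoot log2 fold changes was -1.56 ± 0.27 for -Zn (95% interval -2.13 to -0.99, adjusted p = 0.0515, limma), which just missed the threshold, and 1.29 ± 0.27 for resupply (adjusted p = 0.13). The value for -Zn was called in 9 of 27 alternatives, with adjusted p between 0.00399 and 0.206 over all of them. Leaving out ZRR replicate 1, ZRR replicate 3, ZRS replicate 1 or ZRS replicate 2 each gave such a call (adjusted p = 0.0193, 0.0174, 0.0498 and 0.0335), although none of these libraries enters the contrast other than through the spread.

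The differences for the next members in the interactions were wide. Os07g0569700 differed by 1.97 ± 0.94 for -Zn and Os05g0114400 by -2.12 ± 0.65 for resupply (adjusted p = 1 and 0.669). Os03g0356652 differed by -0.38 ± 0.18 for -Zn and by 0.53 ± 0.18 for resupply (adjusted p = 1 and 0.811).

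Differences between roots and shoots were much larger than those with Zn. After resupply (ZRR/ZRS) 14 of 52 members were called (26.9%), against 39.4% of all tested loci, with 12 higher in roots, against a background of 27.6%, and 2 lower, against 11.8%. Under -Zn (ZMR/ZMS) 13 were called (25%), against 31.9%, with 9 higher (background 18.5%) and 4 lower (background 13.4%). Under +Zn (ZPR/ZPS) 12 were called (23.1%), against 34.1%, with 10 higher (background 20.5%) and 2 lower (background 13.5%). Thus the share of members called was below that of all loci in each supply, and this difference was not tested. In these bulk samples, fewer cells of a type and less RNA per cell cannot be told apart.

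The balance of higher and lower members moved with the scaling. The median over all tested loci was not 0 in these comparisons, at 0.58 after resupply, 0.36 under -Zn and 0.38 under +Zn, and that of the C2H2 members was lower in each, at 0.46, 0.31 and 0.18. When libraries were scaled to the same median, the calls were 6 higher and 9 lower after resupply, 6 higher and 5 lower under -Zn, and 6 higher and 2 lower under +Zn. The shares of all tested loci moved too, with 12.3% higher and 17.0% lower after resupply, 13.6% and 15.9% under -Zn, and 14.4% and 16.4% under +Zn. Quantile normalization gave 8 higher and 5 lower after resupply (all loci 15.1% and 15.6%), 6 and 4 under -Zn (14.1% and 15.6%), and 6 and 2 under +Zn (15.0% and 16.0%). The median of all tested loci then lay between 0.05 and 0.16. A total of 20 of 52 members (38.5%) were called in at least 1 supply, against 47.6% of all tested loci. In all 3 supplies 7 members were called (13.5%, against 24.6%), each of them higher in roots, where the share over all loci was 14.7%.

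**Figure D4:**
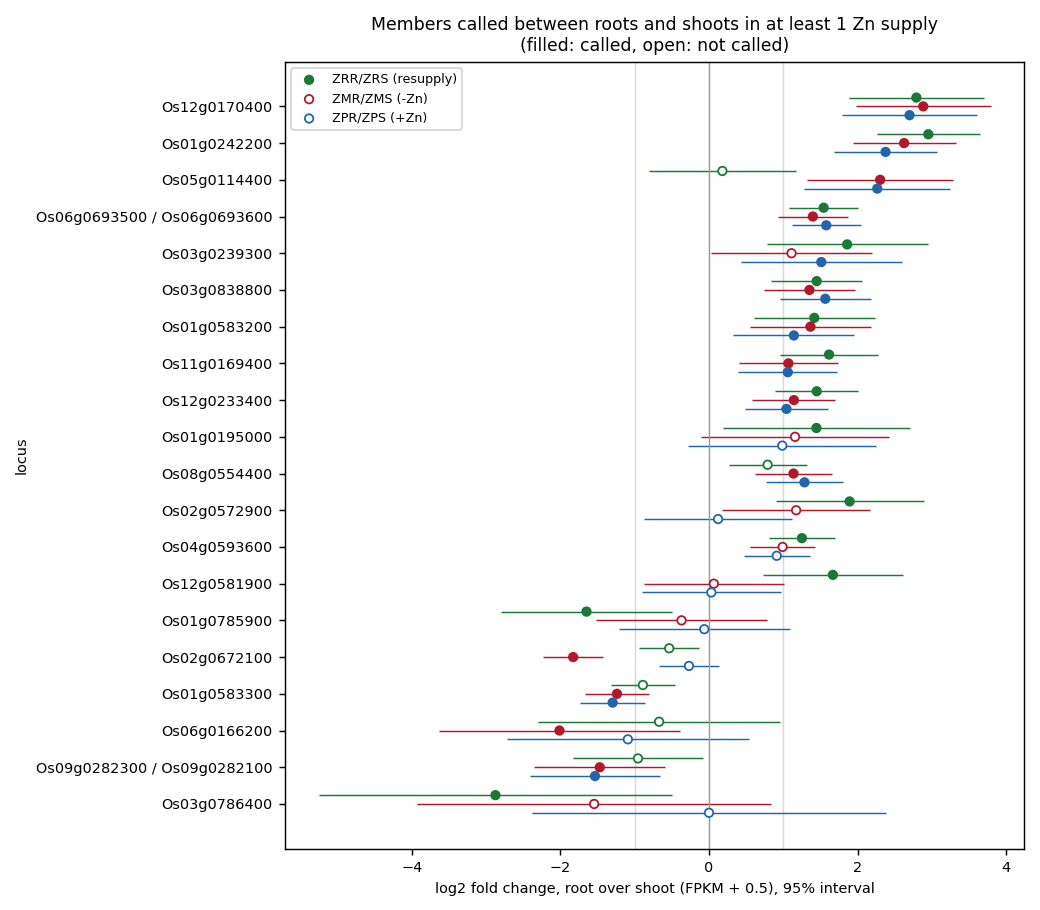
Log2 fold change of FPKM + 0.5, root over shoot, with 95% intervals for the 20 members called in at least 1 Zn supply (filled points are called, open points are not). Os12g0170400 and Os01g0242200 lie above 2 in each supply, Os05g0114400 is near 0 after resupply, and Os02g0672100 is at -1.83 under -Zn and nearer 0 in the other supplies.

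A log2 fold change above 2 in every supply was seen in 2 members. Os12g0170400, described as an Al tolerance C2H2 transcription factor with the GO term response to aluminum ion (chromosome 12, 3579952 to 3583002, plus strand), had 14.7, 30.5 and 29.6 FPKM in ZRR, 12.9, 29.9 and 31.3 FPKM in ZMR and 9.24, 25.6 and 32.6 FPKM in ZPR, against 2.22 to 3.37 FPKM in the 9 shoot libraries. It was higher in every root library. The log2 fold change was 2.79 in ZRR/ZRS, 2.89 in ZMR/ZMS and 2.70 in ZPR/ZPS (SE 0.43 each, adjusted p = 7.1e-05, 5.27e-05 and 9.52e-05). Its log2 fold change with Zn in roots was 0.21 ± 0.53 in ZMR/ZPR (95% interval -1.01 to 1.43, adjusted p = 1). Replicate 1 gave the lowest value in each root group, at 9.24 to 14.7 FPKM against 25.6 to 32.6 FPKM in the other root libraries.

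Os01g0242200, annotated to transcription factor activity and binding of regulatory DNA, was nearly confined to roots in these libraries. It had 3.80, 2.95 and 5.36 FPKM in ZRR, 5.08, 2.70 and 2.18 FPKM in ZMR and 4.12, 2.55 and 1.32 FPKM in ZPR, against 0 to 0.120 FPKM in shoots. No root library overlapped a shoot library, and the log2 fold change was 2.95 in ZRR/ZRS, 2.63 in ZMR/ZMS and 2.38 in ZPR/ZPS (SE 0.32 each, adjusted p = 2.65e-06, 8.65e-06 and 2.31e-05). Os05g0114400 was likewise higher in roots under -Zn and +Zn (2.30 and 2.27, adjusted p = 0.000824 and 0.000913), with 0 to 0.116 FPKM in shoots. After resupply, with ZRR at 0.429, 0 and 0 FPKM, its difference was 0.18 ± 0.46 (adjusted p = 0.761). Os01g0242200 and Os05g0114400 passed the filter through roots alone, the tissue in which they were high.

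The locus Os06g0693500;Os06g0693600 joins a C2H2-like gene, annotated to ribosomal large subunit biogenesis, with a conserved hypothetical gene. The level of this locus is thus not that of the C2H2 gene alone. It had 11.9, 9.99 and 11.2 FPKM in ZRR, 11.9, 10.2 and 11.1 FPKM in ZMR and 14.4, 11.46 and 10.7 FPKM in ZPR, against 2.42 to 5.19 FPKM in shoots (log2 fold change 1.58 ± 0.22 in ZPR/ZPS, adjusted p = 2.68e-05). With Os12g0170400 and Os01g0242200 it made up the 3 members called in every supply under every alternative in which they were tested. Its isoforms differed as well. One assembled isoform held 20.6 to 56.6% of the locus FPKM in roots (median 44.9%) and 0 to 3.68% in shoots (median 1.05%). The annotated first isoform of Os06g0693500 held 31.1 to 70.3% in roots (median 44.8%) and 49.8 to 98.6% in shoots (median 96.7%). The fold change of the locus is thus larger than that of this isoform, which was not tested alone. Among 29 members with at least 2 isoforms and a mean of at least 1 FPKM in both tissues, the most abundant isoform differed between roots and shoots in 4, and of these 4 this locus was the only one in which the shares of the main root isoform did not overlap. Among the other members, the share of the main isoform was apart in Os03g0356652 (79.2 to 95.1% in roots and 70.7 to 76.9% in shoots) and Os02g0518500 (52.7 to 90.6% in roots and 95.4 to 100% in shoots).

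Other members were higher in roots at lower fold. Os08g0554400, annotated as a transcription factor, had 19.0 to 31.2 FPKM in roots and 8.54 to 17.9 FPKM in shoots, and was called under -Zn and +Zn (1.14 and 1.29) but not after resupply (0.79 ± 0.25, adjusted p = 0.0136). Os12g0233400 had 9.0 to 14.7 FPKM in roots and 2.37 to 6.11 FPKM in shoots, without overlap, and its log2 fold change of 1.04 in ZPR/ZPS (adjusted p = 0.00426) dropped below the limit of 1 without ZPR replicate 2 (0.98) or without ZPS replicate 1 (0.86). Both were apart in every supply. Os03g0838800 had 0.359 to 1.82 FPKM in roots and 0 to 0.0683 FPKM in shoots (1.57 in ZPR/ZPS, adjusted p = 0.000374). It was also called under -Zn and after resupply (1.35 and 1.45). Those calls were lost with a pseudocount of 1 (0.85 and 0.94), and the resupply call also with median scaling (0.92). Os11g0169400 had 0.366 to 2.56 FPKM in roots and 0 to 0.341 FPKM in shoots, and its 1.06 in ZPR/ZPS (adjusted p = 0.0115) became 0.99 without ZPS replicate 1. Its call under -Zn was lost without ZMR replicate 1 (0.84, adjusted p = 0.0594). With a pseudocount of 1 its -Zn and +Zn calls were lost (0.67 and 0.65). Os03g0838800 and Os11g0169400 passed the filter through roots alone, the tissue in which they were high. With quantile normalization or median scaling, calls of Os12g0233400 in all 3 supplies (0.77 to 0.98), of Os11g0169400 under -Zn and +Zn (0.80 to 0.92) and of Os08g0554400 under -Zn (0.92 and 0.90) were below the limit of 1.

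A pair of neighbouring members went in opposite directions. Os01g0583200 and Os01g0583300 both carry a LYAR-type C2H2 domain and lie on the minus strand of chromosome 1, from 22624677 to 22628038 and from 22632678 to 22637165, with 4639 bases between them. Os01g0583200 had 10.2 to 20.6 FPKM in roots and 2.91 to 10.999 FPKM in shoots and was called higher in roots in all 3 supplies (1.42 in ZRR/ZRS, 1.37 in ZMR/ZMS and 1.14 in ZPR/ZPS). The roots and shoots overlapped after resupply, through ZRS replicate 2 at 10.999 FPKM. The +Zn call was lost without ZPS replicate 1 (0.89, adjusted p = 0.105), ZPR replicate 2 (1.07, adjusted p = 0.0676) or ZPR replicate 3 (1.13, adjusted p = 0.0552), and with quantile normalization (0.87) or median scaling (0.88). The resupply call was lost with the same settings (0.95 and 0.89) and in a fit of the 6 libraries compared (adjusted p = 0.0538). Os01g0583300 had 0 to 0.192 FPKM in roots and 0.458 to 1.24 FPKM in shoots, apart in every supply, and was called lower in roots under -Zn and +Zn (-1.24 and -1.30, adjusted p = 0.000149 and 9.26e-05) but not after resupply (-0.89 ± 0.20, adjusted p = 0.00204). It passed the filter through shoots alone, the tissue in which it was high. With a pseudocount of 1 both calls were lost (-0.79 and -0.85). The other 3 pairs of members within 20 kb of each other, on chromosomes 2, 3 and 12, averaged below 0.5 FPKM in both tissues.

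Without rescaling of the libraries, few members were called lower in roots. With median scaling, 9 were called lower and 6 higher after resupply. Os09g0282300;Os09g0282100 joins a gene described as similar to WIP1 with one described by a C2H2-type/integrase DNA-binding domain, so its level is not that of either gene alone. This locus was listed at 0 in 8 root libraries and at 0.0258 FPKM in ZRR replicate 1, against 0, 1.63 and 0.400 FPKM in ZRS, 0.432, 1.28 and 1.11 FPKM in ZMS and 0.647, 1.73 and 0.690 FPKM in ZPS. It was called lower in roots under -Zn and +Zn (log2 fold change -1.47 and -1.54, adjusted p = 0.00903 and 0.00664, limma). It passed the filter through shoots alone, the tissue in which it was high. With a pseudocount of 1 both calls were lost (-0.93 and -0.98). Os06g0166200 had 0, 2.099 and 1.498 FPKM in ZMR against 5.713, 4.504 and 4.996 FPKM in ZMS, and its call (log2 fold change -2.01, adjusted p = 0.0434) held in 14 of 28 alternatives and weakened most without ZMR replicate 1 (-1.28, adjusted p = 0.201). Os02g0672100 was called lower in roots under -Zn only, at -1.83 ± 0.19 (adjusted p = 1.26e-06), against -0.54 ± 0.19 after resupply (adjusted p = 0.0256) and -0.27 ± 0.19 under +Zn (adjusted p = 0.257). The interaction given above is the test of that difference between supplies.

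After resupply 6 members (11.5%) were called between the tissues that were called in neither other supply, against 8.98% of all tested loci. The share of all loci called after resupply was 33.0% without ZRS replicate 1, against 39.4% with it, and no member was called in the resupply interaction. Os12g0581900 (1.67, adjusted p = 0.0052) and Os02g0572900 (1.89, adjusted p = 0.00335) kept the call in 28 of 28 alternatives. Os04g0593600 had 5.29 to 8.67 FPKM in roots and 1.95 to 3.39 FPKM in shoots, apart in all supplies, and was called at 1.25 after resupply while its values under -Zn and +Zn were 0.99 and 0.91 (adjusted p = 0.00114 and 0.00208). The resupply call was lost with quantile normalization (0.77) and median scaling (0.72). Os01g0195000 (1.45, adjusted p = 0.0496) kept the call in 9 of 28, and was below 1 without ZRR replicate 1 (0.87, adjusted p = 0.229) or ZRS replicate 1 (0.97, adjusted p = 0.218). Os01g0785900 (-1.65, adjusted p = 0.0178) had 0.448, 5.71 and 0.512 FPKM in ZRS and at most 0.810 FPKM elsewhere, and missed the threshold without ZRR replicate 2 (adjusted p = 0.0517). It reached 0.5 FPKM only in ZRS replicates 2 and 3 and ZMS replicate 1, so it passed the filter through shoots alone. It was not tested when any 1 of these was left out, and 23 alternatives remained. The call thus could not be checked without the high libraries. Os03g0786400 was called on the values listed at 0 described above, with ZRR at 0 in all libraries, and without any 1 ZRR library its adjusted p was 0.075 to 0.0816. It too passed the filter through shoots alone (ZRS replicates 2 and 3 and ZMS replicate 2). It was not tested when any 1 of these was left out. Os03g0239300, with 3.38 to 16.8 FPKM in roots and 0.724 to 3.75 FPKM in shoots, was called after resupply (1.86) and under +Zn (1.51), and under -Zn had 1.11 ± 0.51 (adjusted p = 0.0881). Its +Zn call was lost without ZPR replicate 1 (1.06, adjusted p = 0.117), ZPS replicate 2 (1.45, adjusted p = 0.0607) or ZPS replicate 3 (1.39, adjusted p = 0.0699), and with quantile normalization or median scaling (adjusted p = 0.0589 and 0.0649), and its resupply call with median scaling (adjusted p = 0.052).

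Libraries with the replicate number 1 stood apart for several members. In 7 of 52 tested members (13.5%) replicate 1 was the lowest library in all 6 groups, against 7.33% of all tested loci. It was the highest throughout in 1 member (1.92%), against 4.24% of loci. Replicate 2 was the lowest throughout in 1 member (1.92%) and 0.18% of loci, and replicate 3 in 0 members and 0.0696% of loci. The 7 members lowest in replicate 1 included Os03g0717600, Os02g0164800, Os12g0233400 and Os01g0583200. Os10g0494500 was the widest of them, at 1.67 to 3.22 FPKM in the 6 libraries of replicate 1 and 3.02 to 13.6 FPKM in the others. Replicate 1 also had the highest share of isoform FPKM in the class codes e, i, p or u in each group, at 3.05% or more against at most 2.50% in replicates 2 and 3. The part of this in the values was not tested.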

How the data were processed

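The authors mapped paired-end reads to the rice genome IRGSP-1.0 with TopHat on a Bowtie2 index, with more than 1 alignment per read allowed, which can share reads among close paralogs. The deposited tables hold Cufflinks FPKM per locus and per isoform, with the coverage signal of each isoform deposited beside it. Counts were not used here. Exon numbers, coordinates and isoform shares came from the isoform table, and coverage divided by FPKM served as the depth.

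Values were taken as log2(FPKM + 0.5), and a limma 3.58.1 model with a mean trend was run in R 4.3.3 with no term but group, on the 9 libraries of a tissue for Zn comparisons and on all 18 libraries for root against shoot and for interactions. A locus was tested where 3 or more libraries of the fit reached 0.5 FPKM, and p-values were adjusted by Benjamini-Hochberg over all of them. The script was tested on simulated data. The tested loci numbered 20512 in shoots, 21717 in roots and 24431 over both tissues, and 22 members were not tested in the last. Tables and plots were made with Python 3.11.15, pandas 2.3.3, numpy 2.4.6 and matplotlib 3.10.9.

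Named members were the 3 of smallest p in each -Zn and resupply comparison and in each interaction, those called in ZPR/ZPS with no overlap in any supply (up to 10 each way), the 5 most abundant in each tissue, and those described by more than a domain. Other members called between the tissues, single members with values listed at 0 and Os10g0494500 were named after their values were seen. The members and lists were chosen with earlier results of these data known.

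Libraries of the same replicate number deviated together, with all 3 correlations over 0.1, in ZMS/ZPS (0.174 to 0.485), ZRS/ZMS (0.131 to 0.375) and ZMR/ZPR (0.124 to 0.422). In the other comparisons at least 1 correlation was below 0.1, although that of replicate 1 lay between 0.268 and 0.425. The labels do not say what the replicate numbers share. Alternatives were other pseudocounts (0.1 and 1), filters and scalings, a replicate block, values of 0 as missing, joined loci left out, other sets of libraries in the fit and each library left out in turn. The reference gene table (another assembly) matched 0 members, so protein motifs and sequences were not analysed here.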

Additional observations from a re-analysis of the deposited data

Results flagged for a closer look

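The libraries of Os02g0672100 were ordered in opposite ways in the tissues under -Zn. Every ZMR library lay below every ZPR library, whereas every ZMS library lay above every ZPS library. Neither change passed its own test, with adjusted p = 1 in ZMR/ZPR, where the 95% interval of -0.82 to 0.11 includes 0, and adjusted p = 0.149 in ZMS/ZPS (limma). The difference of the log2 fold changes (ZMR/ZPR minus ZMS/ZPS) was -1.56, and its test gave an adjusted p of 0.0515 (limma), with a range of 0.00399 to 0.206 over 27 alternatives. Lower without overlap in ZMR/ZPR were 4.55% of tested members and 4.75% of all tested loci. Higher without overlap in ZMS/ZPS were 4.65% and 3.84%, so either order alone was near the background.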

How the results depend on the processing

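Members under 1 FPKM rest on little coverage (3.67 to 7.753 reads per base per FPKM), and the pseudocount of 0.5 compresses their fold changes. Of 258 recomputed counts of called members, 242 stayed within 1.5 times their value. The Zn counts of 0 moved where values of 0 were treated as missing, to 2 in ZMS/ZPS, 1 in ZRS/ZMS, 1 in ZRS/ZPS, 3 for the -Zn interaction and 2 for the resupply interaction, fits that drop the libraries listed at 0. Calls over all tested loci rose there too, from 18 to 73 of 20512 in ZMS/ZPS, 14 to 58 in ZRS/ZMS and 5 to 46 in ZRS/ZPS. For the interactions they rose from 16 and 26 to 363 each of 24431. The member counts moved to 1 in ZMS/ZPS and 1 in ZRS/ZMS with all 18 libraries in 1 fit (19 and 25 of all 24431 loci). The count for the -Zn interaction moved to 1 with a pseudocount of 1, no filter, quantile normalization or median scaling (13 to 23 of all loci). The member called was Os02g0672100, except that with values of 0 as missing Os03g0786400 (alone in ZRS/ZPS) and Os02g0775600 were called too. The cause was not tested. Without 1 library at a time, the counts were 0 in the 6 Zn comparisons, 0 to 1 in both interactions (1 for resupply without ZRR replicate 1), 12 to 15 in ZRR/ZRS, 12 to 15 in ZMR/ZMS and 10 to 12 in ZPR/ZPS. Over all tested loci these counts were 0 to 51 in the 6 Zn comparisons and 10 to 46 in the interactions. Between the tissues they were 7992 to 11091 in ZRR/ZRS, 7317 to 8015 in ZMR/ZMS and 7435 to 8535 in ZPR/ZPS, of 24167 to 24349 tested.

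With the replicate block, the paired fit called 0 members in the 6 Zn comparisons and both interactions, and 15 in ZRR/ZRS, 15 in ZMR/ZMS and 12 in ZPR/ZPS. Between the tissues all 24431 tested loci gave 9868, 8109 and 8621 calls with the block, against 9621, 7792 and 8324 without it. Os02g0672100 then had an adjusted p of 0.346 in ZMS/ZPS and 0.246 in ZRS/ZMS, and the block moved no count by over 1.5 times. Same-numbered libraries were not in every case the closest pair in any comparison. Of 616 recomputed values of named members, 591 kept direction and call, 10 lost a call, 15 gained one and 0 reversed. Of 39 root-to-shoot calls, 18 were kept in every alternative.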

Other observations

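Other zinc finger genes, found by words in their descriptions, also gave no calls with Zn. The lists held 25 CCCH, 102 RING, 9 Dof, 13 B-box, 14 GATA and 171 PHD loci, and none was called by limma in the 6 Zn comparisons or the interactions. Of all tested loci, 0.023% to 0.124% were called in the 6 Zn comparisons, and 0.0655% and 0.106% in the interactions. Counts of 0 in lists of this size are near that background. Between roots and shoots under +Zn, the B-box list had 4 loci higher and 3 lower among 11 tested, RING had 15 and 5 of 63, PHD 20 and 2 of 140, CCCH 2 and 0 of 18, GATA 0 and 2 of 11, and Dof 1 and 0 of 6. The shares called ran between 11.1% (CCCH) and 63.6% (B-box), beside 23.1% for C2H2 and 34.1% for all tested loci. Of all tested loci, 20.5% were called higher in roots and 13.5% lower.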
